A study of Mus musculus with 106 samples.

Results

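Described here are 9 genes of the insulin-like growth factor (IGF) system: the ligand *Igf1*, the receptors *Igf1r* and *Igf2r*, and the binding proteins *Igfbp2*, *Igfbp3*, *Igfbp4*, *Igfbp5*, *Igfbp6* and *Igfbp7*. They were listed by gene symbol, and all 9 were found among the 55401 mouse genes counted, of which 21897 are protein-coding. The values come from 67 libraries of immunoprecipitates (IPs) and 39 of total RNA, from 45 mice (24 control, 21 HD) aged 9 months, a knock-in model of Huntington's disease on the 129S4 background. HD mice were Hdh Q7/Q200 and controls were their Hdh Q7/Q7 littermates, as the study describes for the Gad2, PV and vGluT2 lines. Mice of those lines were heterozygous for RiboTag, an *Rpl22* allele that gains an HA tag in cells with Cre, and for a Cre driver. The drivers, of Gad2, PV, SST or vGluT2 neurons, were the Gad2-IRES-Cre, PV-IRES-Cre and vGluT2-IRES-Cre knock-ins and an SST line. The study does not describe the construct or the breeding of the SST line. The IPs hold mRNA on tagged ribosomes of the Cre cells, and total RNA (the input of the IPs) holds mRNA of all cells in the same homogenates of 1 hemisphere. The cerebrum was taken without the olfactory bulb, and the PV+ IPs were pooled from duplicate IPs of 1 homogenate.

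The IPs came from 6 control and 6 HD mice for cerebral Gad2+, 6 and 5 for PV+, 5 and 4 for SST+, 6 and 6 for cerebral vGluT2+, 6 and 6 for cerebellar Gad2+, and 5 and 6 for cerebellar vGluT2+ cells. Total RNA was compared between 9 control and 9 HD mice in the cerebrum (Gad2, PV and vGluT2 lines) and between 7 and 7 in the cerebellum (Gad2 and vGluT2 lines), and 7 further cerebral libraries came from the SST line. A library held between 21905221 and 107753586 counts on mouse genes, with a median of 35866725. Levels are given as CPM (a gene's count divided by the library total, on a common scale) after TMM normalization, with the SD over libraries. In 3 HD groups (PV+, cerebral vGluT2+ and cerebellar Gad2+ IPs) 1 library was sequenced again in a second run. Without these libraries 0 of the 9 genes were called in HD against control in each of the 3 groups, as with them.

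IGF-1 is a secreted growth factor that acts on neurons and glia through IGF1R, a receptor tyrosine kinase that signals through insulin receptor substrates to the PI3K-Akt and MAP kinase pathways. Most IGF outside cells is held by binding proteins, which lengthen its life, keep it from its receptor or deliver it at the cell surface, and which proteases cleave to release it. IGF2R, the cation-independent mannose 6-phosphate receptor, takes up IGF-2 for degradation and carries lysosomal enzymes, and does not signal like IGF1R.

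Positions are on GRCm38. *Igfbp2* (ENSMUSG00000039323.18, chromosome 1, 72824503 to 72852474, plus strand) and *Igfbp5* (ENSMUSG00000026185.8, chromosome 1, 72857932 to 72874884, minus strand) are neighbours, 5458 bases apart. *Igfbp3* (ENSMUSG00000020427.11, chromosome 11, 7206086 to 7213923, minus strand) lies 3540 bases from *Igfbp1*, and *Igfbp4* (ENSMUSG00000017493.12) is on the same chromosome at 99041244 to 99054392, plus strand. *Igfbp6* (ENSMUSG00000023046.6) is on chromosome 15 at 102144362 to 102149511, plus strand. *Igfbp7* (ENSMUSG00000036256.13, chromosome 5, 77349240 to 77408041, minus strand) overlaps *Polr2b* and *Gm34648* on the other strand. *Igf1* (ENSMUSG00000020053.18, chromosome 10, 87858265 to 87937042, plus strand) overlaps the antisense gene *Igf1os*, and *Igf2r* (ENSMUSG00000023830.14, chromosome 17, 12682406 to 12769664, minus strand) the antisense gene *Airn*. *Igf1r* (ENSMUSG00000005533.10) is on chromosome 7 at 67952827 to 68233668, plus strand. Their exons hold from 1112 bases in *Igfbp6* to 16791 bases in *Igf1r*. All 9 genes passed the filter on low counts (a mean count over 10) in every comparison, and median counts per library ran from 146 for *Igfbp7* to 4678 for *Igfbp5*.

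The cell type labels were checked with markers. Against total RNA, *Gad2* mRNA was higher in the cerebral Gad2+ IPs by 1.73 and in the cerebellar by 1.83 on the log2 scale, *Pvalb* in the PV+ IPs by 2.38, *Sst* in the SST+ IPs by 3.16, and *Slc17a6*, which encodes vGluT2, in the cerebral vGluT2+ IPs by 0.97 and in the cerebellar by 1.52. Of the list of 3 vGluT2 neuron markers, 3 were called higher in the cerebral vGluT2+ IPs, but 1 higher and 1 lower in the cerebellar (median 0.13). The cerebellar vGluT2+ IPs were also enriched for the 4 markers of granule cells (log2 differences of 0.88 to 1.31) and held little *Pcp2*, a Purkinje cell gene (19.6 ± 6.45 CPM against 1410 ± 438 CPM in the cerebellar Gad2+ IPs of controls). *Slc17a6* was not restricted to its own line, since it was also above total RNA in PV+ (1.20) and SST+ IPs (1.13). In the PV+ IPs 1 HD library stood apart with a summed level of 4 Purkinje markers of 1560 CPM (median of the 5 HD libraries 89.4) and of 4 granule markers of 421 CPM (median 47.8). Without any 1 PV+ library, 0 of the 9 genes were called in HD against control. *Pcp2* also varied widely in control PV+ IPs (22.6 ± 30.4 CPM, SD) and in cerebral Gad2+ IPs (14.5 ± 29 CPM in control, 16.5 ± 25.3 in HD). Its means in SST+ and cerebral vGluT2+ IPs were 0.0831 to 0.921 CPM. The part of such RNA in the values of the 9 genes was not tested.

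Among the 9 genes, levels were compared per kilobase of exon. *Igfbp6* had the highest level per kilobase in control IPs of cerebral Gad2+ (24 CPM per kb), cerebral vGluT2+ (86.1) and cerebellar Gad2+ cells (39.9), and *Igfbp5* in those of PV+ (18.3), SST+ (22.5) and cerebellar vGluT2+ cells (77.2). *Igf1* had the lowest level per kilobase in control IPs of PV+ (0.764), SST+ (1.34), cerebral vGluT2+ (0.405) and cerebellar vGluT2+ cells (0.135), *Igfbp7* in cerebral Gad2+ (1.25) and *Igfbp4* in cerebellar Gad2+ cells (0.538). The first place in cerebral Gad2+ IPs was by a small margin, with *Igfbp4* at 22.7 CPM per kb. In HD IPs *Igfbp4* came first in cerebral Gad2+ (21) and PV+ cells (15.4), and *Igf1* last in cerebral Gad2+ cells (1.07). These ranks were not tested. Every group of total RNA, control and HD, had *Igf1* lowest of the 9.

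The comparison of IPs with total RNA asked which of these mRNAs were higher and which were lower in the IPs, with control and HD libraries together and genotype as a covariate. By edgeR's quasi-likelihood test and Benjamini-Hochberg adjustment over all genes tested (called at an adjusted p of 0.05 or less), 6 of the 9 genes differed in cerebral Gad2+ IPs, 1 higher and 5 lower, where 63.5% of all genes tested were called. In PV+ IPs 9 differed (3 higher, 6 lower; 73.2% of all genes), in SST+ IPs 7 (2 higher, 5 lower; 63.4%) and in cerebral vGluT2+ IPs 3 (1 higher, 2 lower; 63.6%). In the cerebellum 7 differed in Gad2+ IPs (3 higher, 4 lower; 67.4%) and 7 in vGluT2+ IPs (2 higher, 5 lower; 68.3%). Most genes differ between an IP and total RNA, so these counts describe no feature of the IGF genes, and the directions of single genes are given instead.

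Cerebellum and cerebrum of control mice were compared to show how the levels depend on region. Of the 9 genes, 7 differed in Gad2+ IPs (6 higher in the cerebellum, 1 lower), where 51.1% of all genes were called. In vGluT2+ IPs 7 differed (3 higher, 4 lower; 63.2%) and in total RNA 6 (4 higher, 2 lower; 58.2%). For each gene the 6 control IPs were also put in order, and the 45 pairs of neighbours in these orders were compared by a two-sided exact permutation test on log2(CPM + 1), with Benjamini-Hochberg adjustment over the 45 pairs. By that test 18 pairs differed and 27 did not. It treats the libraries as unrelated, although Gad2+ IPs of both regions came from the same mice, as did vGluT2+ IPs apart from 1 cerebral library.

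The ligand *Igf1* had its highest control levels in IPs of Gad2+ and SST+ neurons. In control IPs it averaged 14.8 ± 3.86 CPM (SD, n = 6) in cerebral Gad2+, 14.4 ± 3.25 (n = 6) in cerebellar Gad2+ and 13.2 ± 3.25 (n = 5) in SST+ cells, and these neighbours did not differ (exact permutation test, adjusted p = 0.933 and 0.763). PV+ IPs had 7.56 ± 2.34 CPM (n = 6), cerebral vGluT2+ IPs 4.01 ± 1.14 (n = 6) and cerebellar vGluT2+ IPs 1.33 ± 0.919 (n = 5). Each of these steps down passed the exact permutation test (adjusted p = 0.03, 0.042 and 0.0266). The 5 cerebellar vGluT2+ controls were at 0.903, 2.97, 0.927, 0.796 and 1.07 CPM, so that 1 library carried much of the spread. Against total RNA, *Igf1* was higher by 1.40 in cerebral Gad2+ (SE 0.281), 0.68 in PV+ (SE 0.288), 1.71 in SST+ (SE 0.198) and 1.75 in cerebellar Gad2+ IPs (SE 0.189) on the log2 scale, by edgeR's quasi-likelihood test and Benjamini-Hochberg adjustment (adjusted p = 6.94e-05, 0.0357, 9.48e-07 and 3.37e-09). It was lower in cerebellar vGluT2+ IPs by a log2 difference of -2.12 (SE 0.356, adjusted p = 8.46e-06, the same test), and in cerebral vGluT2+ IPs the difference of -0.43 was not called (adjusted p = 0.272, the same test). Between regions, *Igf1* was lower in cerebellar than in cerebral vGluT2+ IPs (log2 difference -1.64, SE 0.366, adjusted p = 0.00139, the same test) and not called in Gad2+ IPs (-0.06). In total RNA its region difference of 0.41 was not called (adjusted p = 0.474, the same test). With the mouse as a block it was 1.07 (adjusted p = 0.00355, the same test). That fit holds only the mice with total RNA of both regions, so that pairing and the choice of mice cannot be told apart.

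The receptors were more even across cell types. *Igf1r*, which encodes the signalling receptor, averaged 61.3 ± 9.18 CPM (SD, n = 6) in cerebellar Gad2+, 53 ± 10.8 (n = 5) in SST+, 48.7 ± 7.31 (n = 6) in PV+, 47.1 ± 11.1 (n = 5) in cerebellar vGluT2+ and 43.1 ± 5.65 (n = 6) in cerebral vGluT2+ control IPs. None of these neighbours differed (exact permutation test, adjusted p = 0.44 to 0.877). Cerebral Gad2+ IPs came last with 28.4 ± 6.47 CPM (n = 6), below cerebral vGluT2+ IPs (exact permutation test, adjusted p = 0.0195). Against total RNA, *Igf1r* was higher in PV+ (log2 difference 0.53, SE 0.147) and SST+ IPs (0.68, SE 0.149) by edgeR's quasi-likelihood test and Benjamini-Hochberg adjustment (adjusted p = 0.00221 and 0.000623). In cerebral Gad2+ IPs it was lower by that test (-0.45, SE 0.162, adjusted p = 0.0162), but not with the mouse as a block (-0.33, adjusted p = 0.137). That block fit holds only the mice with both an IP and total RNA. *Igf1r*, like *Igf1* and *Igf2r*, is among the longest genes (over 7627 exon bases). These held 23.2 to 27.2% of counts in control PV+ IPs and 14.4 to 18.2% in control total RNA of that line. The control shares were 23.1 to 29.9% and 14.3 to 19.7% in the SST line, and 17.9 to 22.4% and 16.4 to 23% for cerebral Gad2+. Their part in the differences from total RNA was not tested. The cerebellum had more *Igf1r* than the cerebrum in Gad2+ IPs (1.10, SE 0.166, adjusted p = 3.67e-05) and in total RNA (0.86, SE 0.23, adjusted p = 0.00636) by edgeR's quasi-likelihood test and Benjamini-Hochberg adjustment. By that test vGluT2+ IPs showed no called difference (0.07, adjusted p = 0.705). The median share of counts on the longest genes was 24% in control cerebellar and 20.8% in control cerebral Gad2+ IPs. In vGluT2+ IPs it was 24.2 and 21.6%. In control total RNA it was 20.1 and 18.1% in the Gad2 line and 23.4 and 16.9% in the vGluT2 line. The part of that share in the region differences was not tested.

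*Igf2r*, which encodes the receptor that clears IGF-2, had its highest levels in the cerebellum. Control cerebellar vGluT2+ IPs were at 59.3, 77.5, 60.4, 79.5 and 52.3 CPM, and cerebellar Gad2+ IPs ran from 27.1 to 55.3 CPM (median 45.4, n = 6). The groups overlapped between 52.3 and 55.3 CPM, and differed by the exact permutation test (adjusted p = 0.03). Cerebral IPs held 29.5 ± 3.74 (vGluT2+, n = 6), 29.1 ± 2.12 (PV+, n = 6), 29.3 ± 6.58 (Gad2+, n = 6) and 26 ± 3.62 CPM (SST+, n = 5). These cerebral neighbours did not differ (exact permutation test, adjusted p = 0.644 to 0.933), and the step from cerebellar Gad2+ to cerebral vGluT2+ IPs did (adjusted p = 0.039). By edgeR's quasi-likelihood test and Benjamini-Hochberg adjustment the cerebellum exceeded the cerebrum in vGluT2+ IPs (log2 difference 1.10, SE 0.133, adjusted p = 6.15e-06), Gad2+ IPs (0.57, SE 0.182, adjusted p = 0.0159) and total RNA (0.64, SE 0.107, adjusted p = 0.000219). IPs held more *Igf2r* than total RNA in cerebellar vGluT2+ (0.54, SE 0.106, adjusted p = 6.62e-05) and PV+ cells (0.23, SE 0.0988, adjusted p = 0.0372) by the same test.

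Of the binding proteins, *Igfbp2* and *Igfbp7* were lower in every kind of IP than in total RNA. *Igfbp2*, whose product binds IGF-2 more tightly than IGF-1, averaged 81.8 ± 30.8 CPM (SD, n = 13) in control cerebral and 53.9 ± 30.2 CPM (n = 7) in control cerebellar total RNA. In control IPs its mean lay between 5.12 ± 3.01 CPM (cerebellar vGluT2+, n = 5) and 13.2 ± 5.78 CPM (cerebellar Gad2+, n = 6), and no pair of neighbours differed (exact permutation test, lowest adjusted p = 0.311). Every cell type had it below total RNA, at 7.53% (cerebral Gad2+) to 21.4% (cerebellar Gad2+) of its level there, with log2 differences of -3.73 to -2.23 (edgeR's quasi-likelihood test and Benjamini-Hochberg adjustment, highest adjusted p = 7.17e-08). Most of the 6 astrocyte markers were lower in the IPs as well, by a median of -3.73 (cerebral vGluT2+) to -1.43 (SST+, where 5 of 6 were called lower), with summed levels of 95.3 to 1010 CPM in control IPs and 2550 to 4730 CPM in control total RNA, *Apoe* or *Slc1a3* most abundant and none of the 6 at 0. Lists of oligodendrocyte, microglial, endothelial, mural and meningeal markers also had medians below 0 in every IP. In SST+ IPs, however, 2 of 5 oligodendrocyte markers were called higher (up to 1.27) and 3 lower. The part of RNA from any of these cells in the *Igfbp2* values of the IPs was not tested. *Igfbp2* was higher in cerebellar than in cerebral Gad2+ IPs (1.10, SE 0.297, adjusted p = 0.00566, the same test). In that contrast the medians of the astrocyte (1.34, 3 of 6 called higher), endothelial (1.11, 3 of 6), mural (0.78, 2 of 5), meningeal (1.28, 3 of 5) and choroid plexus lists (2.48, 3 of 5) were above 0 as well, and their part was not tested. In total RNA the region difference of *Igfbp2* was called with the mouse as a block (-1.06, adjusted p = 0.000706) and not without it (-0.40, adjusted p = 0.292). The block fit holds only the mice with total RNA of both regions.

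*Igfbp7* encodes a protein related to the binding proteins that binds IGF weakly. Its control means were 12.5 ± 3.22 CPM (SD, n = 13) in cerebral and 10.3 ± 4.61 (n = 7) in cerebellar total RNA, 6.76 ± 2.03 CPM (n = 6) in cerebral vGluT2+ IPs, and 0.822 ± 0.329 to 2.65 ± 0.787 CPM in the other control IPs. Cerebral vGluT2+ IPs exceeded their neighbour in the order, PV+ (exact permutation test, adjusted p = 0.0108), and no other neighbours differed (adjusted p = 0.336 to 0.897). All 6 cell types had *Igfbp7* below total RNA, by log2 differences of -3.65 (cerebellar vGluT2+) to -1.06 (cerebral vGluT2+; edgeR's quasi-likelihood test and Benjamini-Hochberg adjustment, highest adjusted p = 2.08e-07). Between regions it differed in vGluT2+ IPs (-3.09, SE 0.29, adjusted p = 5.13e-07, the same test). In cerebral vGluT2+ IPs *Igfbp7* was at 48% of its level in total RNA. The endothelial and mural marker lists had medians of -3.73 and -3.47 there, and the part of these cells was not tested.

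*Igfbp6*, whose product prefers IGF-2, varied with both region and cell type. Control cerebral vGluT2+ IPs ran from 78.1 to 139 CPM (median 88.3, n = 6), whereas the 5 cerebellar vGluT2+ controls were at 0.903, 1.74, 1.72, 0.858 and 1.64 CPM. These ranges lie far apart, at 1.39% of the cerebral level (log2 difference -6.17, SE 0.256, edgeR's quasi-likelihood test and Benjamini-Hochberg adjustment, adjusted p = 1.94e-10). In Gad2+ IPs the order was the reverse, with 44.4 ± 14.7 CPM (SD, n = 6) in the cerebellum and 26.7 ± 6.43 (n = 6) in the cerebrum (0.71, SE 0.21, adjusted p = 0.00984, the same test; 0.68 with the mouse as a block, adjusted p = 0.00997). Between the cell types, cerebral vGluT2+ exceeded cerebellar Gad2+ IPs, cerebellar and cerebral Gad2+ IPs, of the same mice, were not told apart by the exact permutation test, which leaves that pairing out (adjusted p = 0.0666), and SST+ and PV+ IPs followed, at 11.1 ± 3.66 (n = 5) and 9.75 ± 1.78 CPM (n = 6), with no difference between them (adjusted p = 0.728). Relative to total RNA, *Igfbp6* was higher in cerebral vGluT2+ (0.88) and cerebellar Gad2+ IPs (1.51) and lower in cerebral Gad2+ (-1.10), PV+ (-2.32), SST+ (-2.02) and cerebellar vGluT2+ IPs (-3.48), all past edgeR's quasi-likelihood test and Benjamini-Hochberg adjustment (highest adjusted p = 1.63e-07).

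*Igfbp4*, which encodes a binding protein that restrains IGF until PAPP-A cleaves it, was a cerebral message. Control means were 100 ± 15.5 CPM (SD, n = 6) in cerebral Gad2+ and 99 ± 10.5 (n = 6) in cerebral vGluT2+ IPs, which did not differ (exact permutation test, adjusted p = 0.933). PV+ IPs had 67 ± 7.99 (n = 6) and SST+ IPs 58 ± 13 CPM (n = 5), again with no difference between them (adjusted p = 0.39, the same permutation test). Cerebellar IPs held 2.37 ± 0.422 (Gad2+, n = 6) and 2.33 ± 2.09 CPM (vGluT2+, n = 5), the latter from 0.957, 2.88, 1.22, 0.827 and 5.78 CPM. No cerebellar IP of a control came near the cerebral range, and the cerebellar level was 2.37% of the cerebral in Gad2+ IPs (log2 difference -5.40, SE 0.155, adjusted p = 3.83e-13) and 2.33% in vGluT2+ IPs (-5.42, SE 0.474, adjusted p = 2.53e-07; -6.13 without cerebellar replicate 5, at 5.78 CPM), by edgeR's quasi-likelihood test and Benjamini-Hochberg adjustment. Total RNA showed the same order with a smaller step (-3.14, SE 0.16, adjusted p = 4.19e-09, the same test). In the cerebellum both kinds of IP were below total RNA (-2.40 and -2.90, adjusted p = 1.95e-13 and 5.11e-09, the same test).

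*Igfbp3*, whose product is the main carrier of IGF in blood, had its highest levels in the cerebellum. It averaged 30.5 ± 6.08 CPM (SD, n = 6) in cerebellar Gad2+ and 23.1 ± 5.08 (n = 5) in cerebellar vGluT2+ control IPs, with no difference (exact permutation test, adjusted p = 0.127), then 14.3 ± 1.35 to 16.5 ± 1.06 CPM in SST+, cerebral vGluT2+ and cerebral Gad2+ IPs. PV+ IPs had the lowest level, 6 ± 1.14 CPM (n = 6), below cerebral Gad2+ IPs (exact permutation test, adjusted p = 0.0108) and below total RNA (log2 difference -1.22, SE 0.104, adjusted p = 1.89e-11, edgeR's quasi-likelihood test and Benjamini-Hochberg adjustment). The cerebellum exceeded the cerebrum in Gad2+ IPs (1.08), vGluT2+ IPs (0.55) and total RNA (0.43), with adjusted p = 2.78e-06, 0.00855 and 0.00697 by the same test. Its excess over total RNA in cerebellar Gad2+ IPs (0.42, adjusted p = 0.00073) was not called with the mouse as a block (0.15, adjusted p = 0.285, the same test). The fit with the block holds only the mice with both an IP and total RNA.

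*Igfbp5*, which encodes a binding protein that also attaches to the extracellular matrix, had the highest CPM of the binding proteins in cerebellar vGluT2+ cells. The 5 controls were at 501, 545, 359, 408 and 504 CPM, and the next group, cerebral vGluT2+ IPs, ran from 152 to 223 CPM (median 161, n = 6). These groups did not overlap (exact permutation test, adjusted p = 0.0108). Then came SST+ IPs with 129, 131, 134, 125 and 156 CPM, cerebellar Gad2+ with 96 to 136 (mean 111 ± 13.5, n = 6), PV+ with 83 to 128 (median 115, n = 6) and cerebral Gad2+ with 50 to 78.5 CPM (median 61.9, n = 6). Cerebellar Gad2+ and PV+ IPs did not differ (adjusted p = 0.933), and the other steps did (adjusted p = 0.0108 to 0.0487, the same permutation test). *Igfbp5* was above total RNA in cerebellar vGluT2+ IPs (log2 difference 0.55, SE 0.0962, adjusted p = 1.70e-05) and below it in cerebral Gad2+ (-1.48), cerebellar Gad2+ (-0.81) and PV+ IPs (-0.55; highest adjusted p = 1.01e-05), by edgeR's quasi-likelihood test and Benjamini-Hochberg adjustment. SST+ IPs were lower by the same test (-0.27, adjusted p = 0.0228), but not with the mouse as a block, in the mice with both libraries (-0.20, adjusted p = 0.0872). The cerebellum exceeded the cerebrum in vGluT2+ IPs (1.39, SE 0.143, adjusted p = 1.34e-06), Gad2+ IPs (0.82, SE 0.126, adjusted p = 4.78e-05) and total RNA (0.65, SE 0.134, adjusted p = 0.00109) by the same test.

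**Figure D1:**
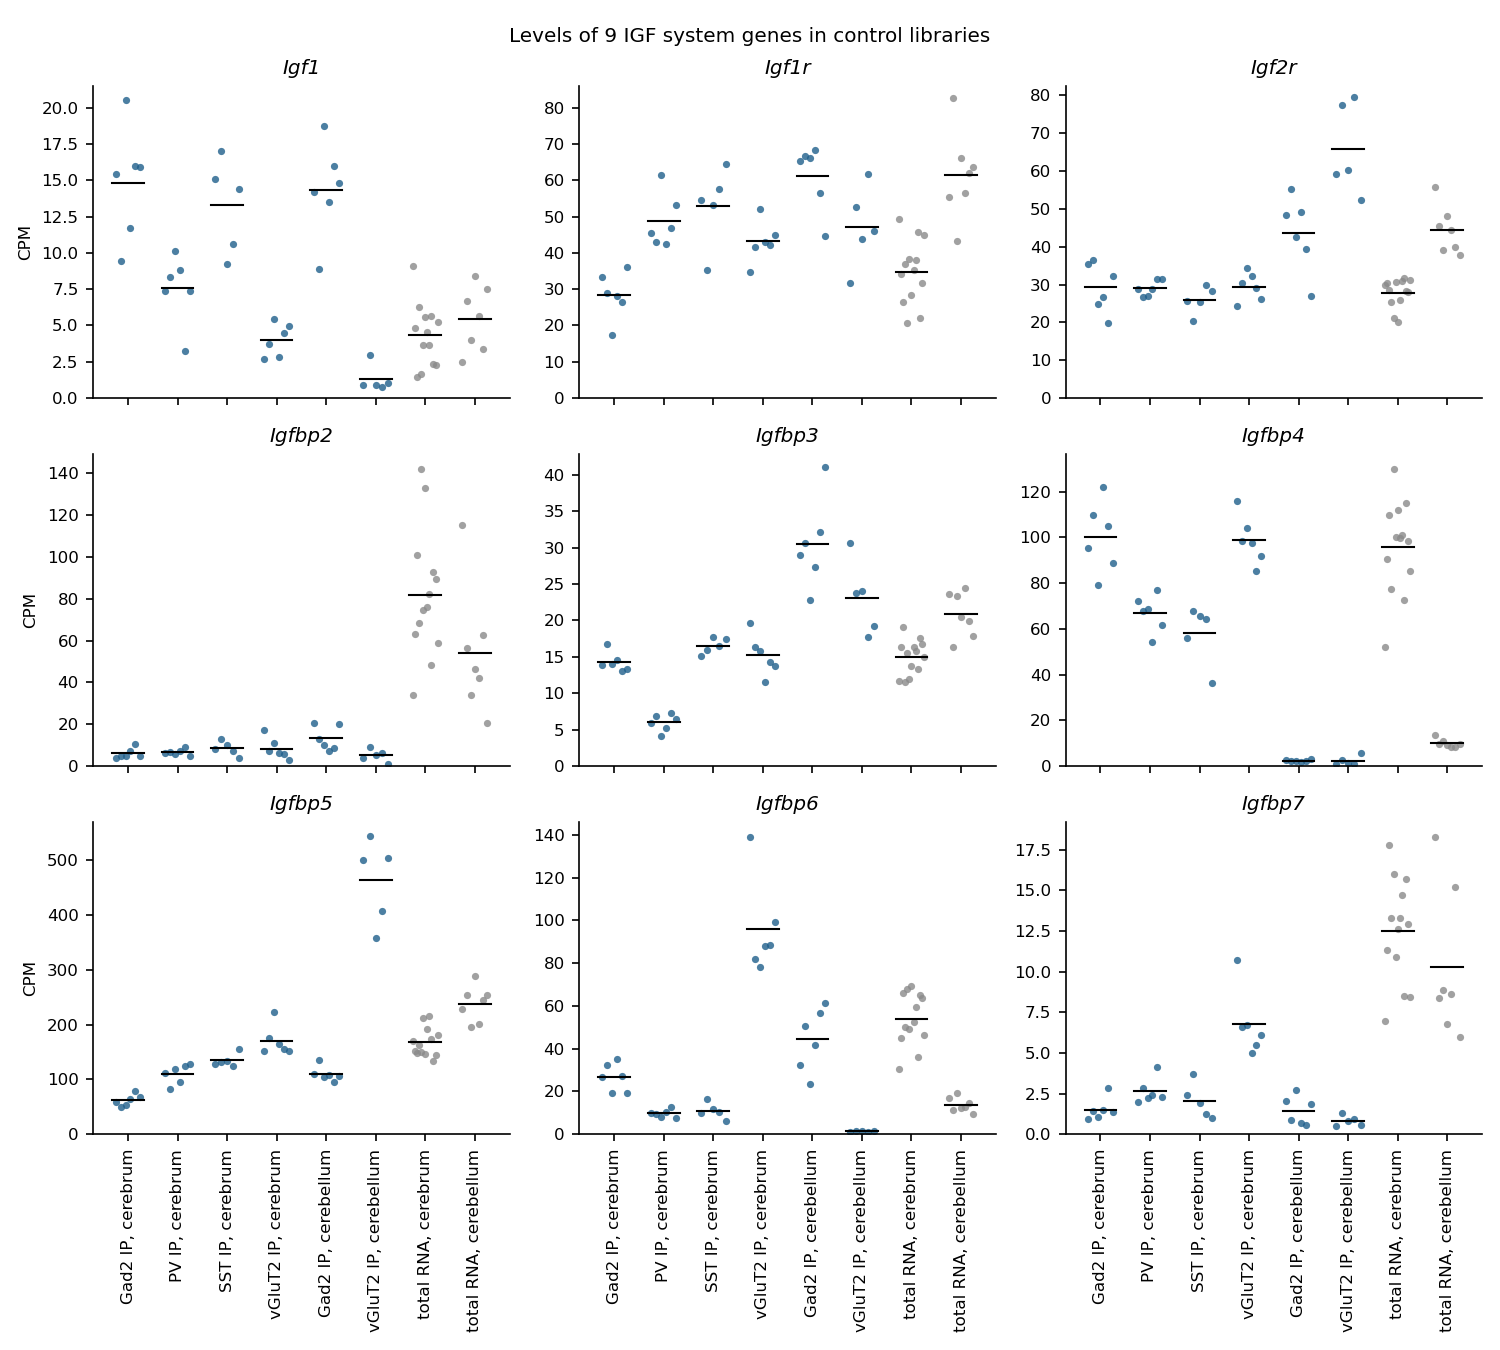
Levels of the 9 genes in control libraries, in CPM (vertical axis), for the 6 kinds of IP (blue) and for total RNA of each region (grey). Each point is 1 library, and the bar is the mean.

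HD and control mice were compared to ask whether each IGF gene differed with genotype in each cell type and tissue. In cerebellar vGluT2+ IPs *Igfbp5* fell strongly. Against the control values of 501, 545, 359, 408 and 504 CPM (mean 463 ± 77.1, SD, n = 5), the 6 HD libraries ran from 116 to 151 CPM (median 131, mean 133 ± 13.9, n = 6). The highest HD library was well below the lowest control, and the HD libraries varied less than the controls. The HD level was 29.2% of control (log2 fold change -1.78, SE 0.125, edgeR's quasi-likelihood test and Benjamini-Hochberg adjustment, adjusted p = 7.37e-06), the change with rank 2 by p-value among the 13487 genes tested. *Igfbp5* was the 1 gene of the 9 called there, where 2.11% of all genes tested were. In bulk libraries such as these, fewer cells of a type and less RNA per cell cannot be told apart.

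Markers of granule cells, the main vGluT2+ neurons of the cerebellum, were also lower in those IPs. Their summed level of 4 genes ran from 6160 to 8680 CPM in control (median 8160) and from 3880 to 5640 CPM in HD libraries (median 4810), without overlap, and 2 of the 4 fell by edgeR's quasi-likelihood test and Benjamini-Hochberg adjustment. Their median log2 fold change was -0.67, with a range of -0.87 to -0.37. *Cbln3*, the most abundant of the 4, averaged 4750 CPM in control and 2660 CPM in HD libraries, *Gabra6* 1270 ± 177 and 963 ± 237 CPM, and none of the 4 was at 0 in any library. Of the 3 markers of vGluT2 neurons 0 were called, with a median log2 fold change of -0.78 (-2.08 to -0.34) and summed levels of 41.2 to 231 CPM in control (median 45.6) and 20.1 to 118 CPM in HD libraries (median 34.5), *Slc17a6* most abundant and none at 0. The part of either list in the *Igfbp5* result was not tested.

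The other cell types gave *Igfbp5* values in the same direction and smaller. Cerebellar Gad2+ IPs ran from 96 to 136 CPM in control (mean 111 ± 13.5, n = 6) and from 56.8 to 79.4 CPM in HD libraries (median 74.9, n = 6), with no overlap. The log2 fold change of -0.62 (SE 0.118) was not called by edgeR's quasi-likelihood test and Benjamini-Hochberg adjustment (adjusted p = 0.28), and was called by DESeq2 (adjusted p = 0.000498). It had rank 5 by p-value among 14098 genes. In cerebral vGluT2+ IPs the controls ran from 152 to 223 CPM and the HD libraries from 97.5 to 147 CPM (median 137, n = 6), again apart. In SST+ IPs the 4 HD libraries, at 93.4 to 122 CPM (median 105), were all under the lowest control of 125 CPM. All HD mice of the SST line carry the code BR, as do 2 of its 5 control IP mice (131 and 129 CPM), and the other 3 controls carry the code Z, so that part of the contrast cannot be told apart from the code. PV+ IPs of HD mice, with 85.6 ± 15.6 CPM (SD, n = 5) and 2 of 5 libraries under the lowest control, and cerebral Gad2+ IPs of HD mice, at 35.6 to 61.2 CPM (median 48.7, n = 6), overlapped with their controls. These 4 cerebral log2 fold changes were -0.36 (vGluT2+, SE 0.121), -0.34 (SST+, SE 0.146), -0.38 (PV+, SE 0.136) and -0.36 (Gad2+, SE 0.151), none called by the same test (adjusted p = 0.666, 1, 0.957 and 0.536).

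**Figure D2:**
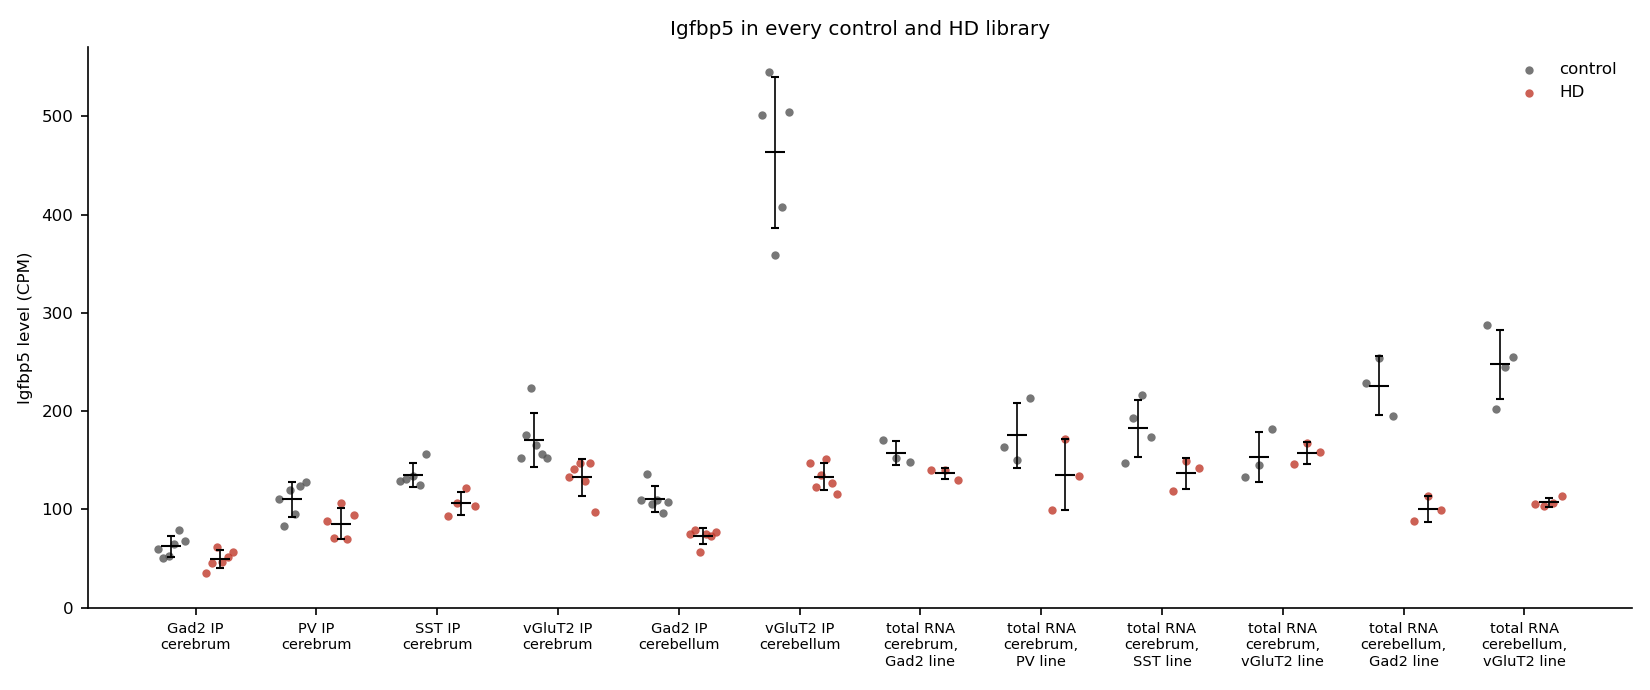
Level of *Igfbp5* in CPM (vertical axis) in every control (grey) and HD library (red), by IP and by line for total RNA. Each point is 1 library, the bar is the mean, and the whiskers are 1 SD.

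Whether these effects differed was tested as an interaction. The HD effect on *Igfbp5* in cerebellar vGluT2+ IPs was stronger than in cerebellar Gad2+ IPs by a log2 difference of -1.18 (SE 0.171, edgeR's quasi-likelihood test and Benjamini-Hochberg adjustment, adjusted p = 0.00133), and it was the 1 of the 9 genes called in that test, against 0.107% of all genes. Against cerebral vGluT2+ IPs the difference was -1.39 (SE 0.177, adjusted p = 0.000424, the same test), rank 1 by p-value of 14253 genes, and again the 1 of the 9 called (0.323% of all genes). Between cerebellar and cerebral Gad2+ IPs the *Igfbp5* difference of -0.27 was not called (adjusted p = 0.833, the same test). For that contrast edgeR called 0 of the 9 genes and 0% of all genes, with 1 of the 9 at an unadjusted p under 0.05 and 0 by DESeq2.

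Cerebellar total RNA showed the fall of *Igfbp5* as well. Controls ran from 195 to 288 CPM (median 245, n = 7) and HD libraries from 88.1 to 114 CPM (median 105, n = 7). All 7 HD libraries were below every control. The HD level was 41.6% of control (log2 fold change -1.27, SE 0.107, edgeR's quasi-likelihood test and Benjamini-Hochberg adjustment, adjusted p = 2.24e-05), rank 2 by p-value of 14477 genes. Mice of both Cre lines showed it. In the vGluT2 line the controls had 288, 202, 245 and 255 CPM and the 4 HD mice 103 to 114 CPM (-1.34, SE 0.13, adjusted p = 9.78e-05, the same test). In the Gad2 line the controls had 229, 254 and 195 CPM and the HD mice 88.1, 114 and 99.5 CPM (-1.17, SE 0.183), which was not called with 3 mice a group (adjusted p = 0.721, the same test). The HD effect in cerebellar vGluT2+ IPs minus that in total RNA of the same line was -0.44 for *Igfbp5* (SE 0.18, adjusted p = 0.0722, the same test). It was called without control IP replicate 3 (-0.56, adjusted p = 0.0186), without HD IP replicate 4 (-0.48, adjusted p = 0.0434), with the mouse as a block (-0.61, adjusted p = 0.0335) and by DESeq2 (-0.46, adjusted p = 0.0407). In cerebral total RNA *Igfbp5* ran from 133 to 213 CPM in control (median 152, n = 9) and from 99.5 to 172 CPM in HD mice (median 140, n = 9), overlapping widely (-0.14, SE 0.127, adjusted p = 0.84, the same test).

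In cerebellar total RNA 3 of the 9 genes were called by edgeR, 1 higher and 2 lower, where 24.5% of all genes tested were, so that the count is close to the background. That share rested on single libraries: it was 96 of 14498 genes without HD vGluT2-line replicate 4, where 1 of the 9 was called, and 7408 of 14505 without HD Gad2-line replicate 3, where 5 were. With all libraries, the genes called besides *Igfbp5* were *Igfbp4* and *Igf2r*. *Igfbp4* ran from 8.25 to 13.6 CPM in control (median 9.86, n = 7) and from 10.1 to 30.1 CPM in HD libraries (median 17.3, n = 7). The 4 HD mice of the vGluT2 line, at 30.1, 27, 25 and 17.3 CPM, lay above all controls, as did 2 of the 3 HD mice of the Gad2 line, at 15.2, 15.4 and 10.1 CPM. The log2 fold change was 0.88 (SE 0.198, edgeR's quasi-likelihood test and Benjamini-Hochberg adjustment, adjusted p = 0.0275), with 1.34 in the vGluT2 line (adjusted p = 0.000336) and 0.25 in the Gad2 line (adjusted p = 1). *Igf2r* ran from 37.7 to 55.9 CPM in control (median 44.3, n = 7) and from 25.5 to 42 CPM in HD libraries (median 36.7, n = 7), with 4 HD libraries below all controls. It fell by 0.44 on the log2 scale (SE 0.138, adjusted p = 0.0382, the same test), with -0.59 in the vGluT2 line (adjusted p = 0.0146) and -0.24 in the Gad2 line (adjusted p = 1). With 1 library left out the call was lost for *Igfbp4* in 8 cases and for *Igf2r* in 9 of 14, each with the direction unchanged.

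The vGluT2 line carried most of these calls. In it alone 7 of the 9 genes were called and 51.7% of 14630 genes, and in the Gad2 line alone edgeR called 0 of the 9 and 0 of 14226 genes, with 1 of the 9 at an unadjusted p under 0.05. The 7 were *Igfbp4* and *Igfbp2* (0.95), *Igfbp6* (0.50), higher, and *Igfbp5*, *Igf2r*, *Igf1* (-1.25) and *Igf1r* (-0.64), lower. The change in that line followed gene length. The share of counts on the longest genes (the 2959 of 14800 with over 7627 exon bases) was 22.9 to 23.5% in its control and 16.4 to 18.3% in its HD total RNA, and with all genes in 5 equal classes of exon length, the median log2 fold change went from 0.37 in the shortest class to -0.68 in the longest. In the Gad2 line the share was 19.5 to 24.3% and 17.8 to 23.9%, and in cerebellar vGluT2+ IPs 20.6 to 25.3% and 21.4 to 26.7%. *Igf1*, *Igf1r* and *Igf2r* are in class 5, the longest, *Igfbp5* is in class 4, *Igfbp4* in 3, *Igfbp3* in 2, and *Igfbp2*, *Igfbp6* and *Igfbp7* are in 1. With that share as a covariate, a fit chosen after the data were seen, *Igfbp5* was called (-1.11, adjusted p = 0.000765, the same test) and the other 8 were not, including *Igfbp4* (0.44, adjusted p = 0.616) and *Igf2r* (-0.19, adjusted p = 0.799). Among 0.283% of all genes called in that fit, *Igfbp5* was thus the 1 of the 9.

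Markers of cell types were called in some lists in cerebellar total RNA, where 24.5% of all genes were. By list, edgeR called 1 of 4 granule cell markers lower (median log2 fold change -0.55), 2 of 3 GABAergic markers lower, 1 of 4 Purkinje markers lower, 2 of 6 astrocyte markers lower, 3 of 5 microglial markers higher, 1 of 5 oligodendrocyte markers higher and 2 lower, and 1 of 2 precursor markers higher. The lists of PV, SST and vGluT2 neurons, endothelium, mural cells, fibroblasts and meninges, and choroid plexus had 0 called, with medians furthest from 0 for vGluT2 neurons (-1.32) and choroid plexus (-0.78). Granule cell sums were 3020 to 4310 CPM in control and 2010 to 2900 CPM in HD mice of the vGluT2 line, and 2840 to 4090 and 1960 to 3010 CPM in the Gad2 line, with *Cbln3* most abundant. Microglial sums were 73.5 to 85.9 CPM in control and 129 to 143 CPM in HD mice of the vGluT2 line, and 90.4 ± 6.53 and 95.4 ± 11.1 CPM (SD, n = 3 each) in the Gad2 line, with *Csf1r* most abundant. No gene of either list was at 0, and their part in the results for the IGF genes was not tested.

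The vGluT2+ IPs and total RNA of the cerebellum differed in the HD effect for 2 of the 9 genes, 1 higher and 1 lower, against 28.6% of all genes. *Igf1r* averaged 47.1 ± 11.1 CPM (SD, n = 5) in control and 56.9 ± 11.2 (n = 6) in HD IPs, an uncalled log2 fold change of 0.30, so that the difference from its fall in total RNA of the line was 0.93 (SE 0.223, edgeR's quasi-likelihood test and Benjamini-Hochberg adjustment, adjusted p = 0.00393). *Igf1r* is among the longest genes, whose share of counts was lower in HD total RNA of that line and not in the IPs, and the part of that shift in the difference was not tested. For *Igfbp4* the difference was -1.77 (SE 0.59, adjusted p = 0.0298, the same test), from 2.33 ± 2.09 CPM (n = 5) in control and 1.75 ± 0.632 (n = 6) in HD IPs, and it was not called with the mouse as a block (-1.91, adjusted p = 0.0576) or without control IP replicate 5, at 5.78 CPM (-1.06, adjusted p = 0.0802). In the cerebellar Gad2 line edgeR called 0 of the 9 genes in that contrast and 0% of all genes, with 1 of the 9, *Igfbp5*, at an unadjusted p under 0.05 (0.58, SE 0.21) and 0 by DESeq2.

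The remaining HD comparisons called none of the 9 genes. By edgeR's quasi-likelihood test and Benjamini-Hochberg adjustment, 0 of 9 were called in cerebral Gad2+ IPs, where 0.0279% of all genes were, with 1 at an unadjusted p under 0.05 and 0 by DESeq2. PV+ IPs had 0 (0.034% of all genes; 1 unadjusted, 0 by DESeq2), SST+ IPs 0 (0%; 2 unadjusted, 0 by DESeq2) and cerebral vGluT2+ IPs 0 (0.00697%; 2 unadjusted, 0 by DESeq2). Cerebellar Gad2+ IPs had 0 (0.0142%; 1 unadjusted, 1 by DESeq2, which was *Igfbp5*) and cerebral total RNA 0 (0.141%; 0 unadjusted, 0 by DESeq2). Over the 8 HD comparisons, 4 of 72 tests of the 9 genes passed. The median log2 fold change of the 9 was between -0.18 (cerebral vGluT2+ IPs) and 0.20 (cerebellar vGluT2+ IPs), beside -0.02 and -0.01 for all genes there.

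*Igf1* was not called in HD in any IP. In cerebral Gad2+ IPs the controls ran from 9.44 to 20.5 CPM (median 15.6, n = 6) and the HD libraries from 6.33 to 16.8 CPM (median 9.58, n = 6). The groups overlapped, with 3 HD libraries under the lowest control (-0.51, SE 0.246, edgeR's quasi-likelihood test and Benjamini-Hochberg adjustment, adjusted p = 0.536). Cerebellar vGluT2+ IPs had 1.33 ± 0.919 CPM (SD, n = 5) and 0.827 ± 0.507 (n = 6), with 1 HD library at 0 (-0.67, adjusted p = 0.662, the same test; -0.84 to -0.15 with each library left out), and the other IPs log2 fold changes of -0.29 to 0.01. In cerebellar total RNA *Igf1* had 2.49 to 8.39 CPM in control (median 5.68, n = 7) and 2.35 to 5.78 CPM in HD mice (median 3.03, n = 7), a log2 fold change of -0.77 that edgeR did not call (SE 0.312, adjusted p = 0.0755, the same test) and DESeq2 did (adjusted p = 0.0364). It was called without control Gad2-line replicate 1 (-0.95, adjusted p = 0.0244) or HD Gad2-line replicate 3 (-0.98, adjusted p = 0.0102, the same test).

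For *Igf1r* the log2 fold changes in IPs lay between -0.23 (cerebral Gad2+) and 0.30 (cerebellar vGluT2+), and for *Igf2r* between -0.19 (cerebellar vGluT2+) and 0.09 (PV+). In cerebellar vGluT2+ IPs *Igf2r* averaged 65.8 ± 12 CPM (SD, n = 5) in control and 56.3 ± 8.51 (n = 6) in HD libraries, overlapping. *Igf1r* in cerebellar total RNA, 61.4 ± 12 CPM in control and 47.6 ± 11 CPM in HD mice (n = 7 each), was not called by edgeR's quasi-likelihood test and Benjamini-Hochberg adjustment (-0.44, SE 0.179, adjusted p = 0.0749). It was called by that test without control Gad2-line replicate 1 (-0.50, adjusted p = 0.048) or 3 (-0.54, adjusted p = 0.0243), or HD Gad2-line replicate 3 (-0.60, adjusted p = 0.0044).

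Among the binding proteins other than *Igfbp5*, no difference in the IPs was called. *Igfbp2* in SST+ IPs was at 8.38, 13, 9.93, 7.39 and 3.96 CPM in control and 7.84, 14.7, 18.7 and 28.8 CPM in HD libraries. Of the 4 HD libraries 3 were above all controls, and the log2 fold change of 1.05 (SE 0.347) was not called by edgeR's quasi-likelihood test and Benjamini-Hochberg adjustment (adjusted p = 1). As for *Igfbp5*, part of the SST+ contrast cannot be told apart from the mouse codes BR and Z. Astrocyte marker sums were 468 to 834 CPM in those controls and 429 to 820 CPM in those HD libraries, with *Apoe* most abundant and none at 0. Choroid plexus sums were 80.6 to 164 CPM (median 96.6) and 87.4 to 400 CPM (median 259), with *Ttr* most abundant and none at 0. Of 5 choroid plexus, 5 meningeal and 6 astrocyte markers 0 were called, with median log2 fold changes of 0.29, 0.21 and 0.03, and the part of these cells was not tested. *Igfbp3* in cerebellar vGluT2+ IPs was at 30.7, 23.8, 24.1, 17.7 and 19.3 CPM in control and 25.3 to 36.9 CPM in HD libraries (median 32, n = 6). Here 3 HD libraries exceeded every control (0.48, SE 0.158, adjusted p = 0.152, the same test). *Igfbp4* lay between -0.42 (cerebellar vGluT2+ IPs, -0.63 to 0.29 with each library left out) and 0.34 (cerebellar Gad2+ IPs, with 3 of 6 HD libraries above all controls). *Igfbp6* stayed between -0.33 (cerebral Gad2+ IPs) and 0.46 (SST+ IPs), and *Igfbp7* between -0.49 (PV+ IPs) and 0.30 (cerebellar vGluT2+ IPs), none called. Over the 8 comparisons *Igfbp5* had a log2 fold change of -0.01 or lower, as rounded, in 8, *Igf1* and *Igf2r* in 6, *Igf1r* in 5, *Igfbp4*, *Igfbp6* and *Igfbp7* in 4, *Igfbp3* in 3 and *Igfbp2* in 1, where IPs and total RNA share mice.

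**Figure D3:**
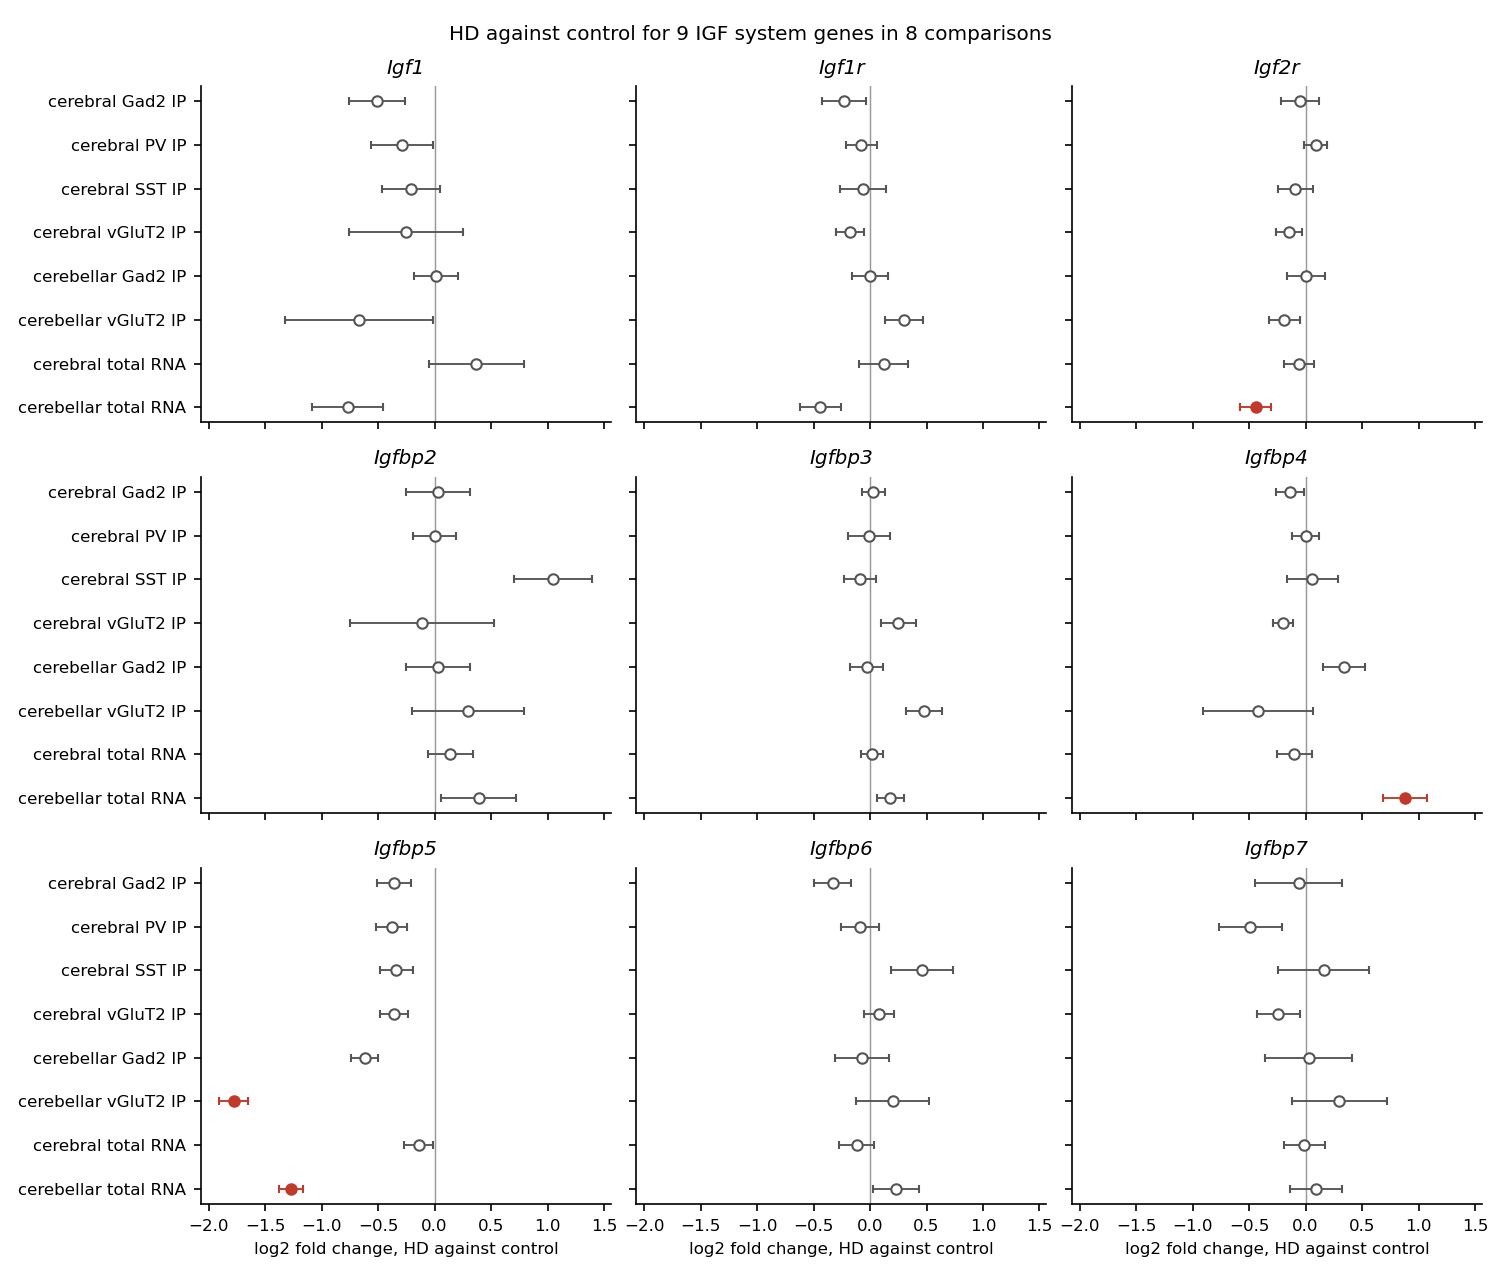
Log2 fold change of the 9 genes in HD against control (horizontal axis) in 8 comparisons, with whiskers of 1 SE. Filled red points were called by edgeR's quasi-likelihood test and Benjamini-Hochberg adjustment, and open points were not.

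The rest of the pathway was counted over 51 genes in 5 lists. In the IPs of cerebral Gad2+, PV+, SST+, cerebral vGluT2+ and cerebellar Gad2+ cells and in cerebral total RNA, 0 of 48, 49, 49, 47, 45 and 49 genes tested were called in HD against control by edgeR. In cerebellar vGluT2+ IPs 1 of 46 was called, a share near the 2.11% of all genes and so no result about the pathway. It was *Foxo3*, a transcription factor that Akt keeps out of the nucleus. *Foxo3* averaged 517 ± 62.2 CPM (SD, n = 5) in control and 387 ± 27.5 (n = 6) in HD libraries (-0.39, SE 0.0935, edgeR's quasi-likelihood test and Benjamini-Hochberg adjustment, adjusted p = 0.0492). *Foxo3* was also lower in cerebellar total RNA (-0.42, SE 0.133, adjusted p = 0.0385, the same test), with -0.34 in the Gad2 and -0.49 in the vGluT2 line. The median log2 fold changes of the lists in the cerebellar vGluT2+ IPs were -0.10 (IGF availability), -0.12 (receptors and adaptors), 0.02 (PI3K, Akt and FoxO), 0.11 (mTOR) and 0.06 (Ras and MAP kinase), beside -0.01 for all genes.

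In cerebellar total RNA 8 of 47 pathway genes were called higher and 9 lower, where 24.5% of all genes were called. Higher were *Akt1* (0.46), *Akt2* (0.53), *Gsk3a* (0.52), *Eif4ebp2* (0.27), *Rptor* (0.32), *Hras* (0.56), *Map2k2* (0.53) and *Mapk3* (0.52). Among those lower besides *Foxo3* were *Insr*, the insulin receptor (-0.90), *Pappa*, which encodes the protease of the *Igfbp4* and *Igfbp5* products (-2.03), *Pik3ca* (-0.93), *Pik3r1* (-0.91), *Rictor* (-1.36), *Rps6kb1* (-1.18) and *Braf* (-1.18). The values came mainly from the vGluT2 line, as with *Insr* (-1.51 there, -0.07 in the Gad2 line) and *Akt1* (0.66 and 0.19), and *Insr*, *Pappa*, *Pik3ca*, *Pik3r1*, *Rictor*, *Rps6kb1* and *Braf*, as well as *Rptor* among those higher, are in the longest class of genes. List medians were -0.15 for IGF availability, -0.21 for receptors and adaptors, -0.38 for PI3K, Akt and FoxO, 0.02 for mTOR and 0.06 for Ras and MAP kinase, beside -0.01 for all genes.

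The genes whose levels were most like each of the 9 over the 67 IP and 39 total RNA libraries were found by Pearson's r of log2(CPM + 1) among 14800 genes. These values are a description, since the libraries share mice, homogenates and cell types. *Igfbp2* was closest to *S100a1* and *Apoe* (r = 0.96 each) and *Myl9* (0.95), and *Igfbp7* to *Copz2* and *Mgp* (0.94) and *Nbl1* (0.93). *Igfbp4* followed *Rtkn* (0.98), *Pde8b* and *Adrb1* (0.97), *Igfbp6* followed *Cck* (0.96), *Sept5* (0.94) and *Lypd1* (0.92), and *Igf1* followed *Spock3* (0.91), *Lhfpl3* and *Thsd7a* (0.88). For *Igf1r* the closest were *Ide* (0.89), *Spire1* (0.88) and *Ank2* (0.87), for *Igf2r* *Hlcs* and *Mtcl1* (0.88) and *Srgap2* (0.87), and for *Igfbp3* *Cidea* (0.87), *Kcnip3* and *H2afy* (0.82). *Igfbp5* had the loosest match of the 9, with *Rflnb* (0.77), *Car10* and *Rell1* (0.75). Among the 9 themselves the strongest pairs over the same libraries were *Igfbp2* with *Igfbp7* (r = 0.83) and *Igfbp4* with *Igf2r* (r = -0.82). The neighbours *Igfbp2* and *Igfbp5* had r = 0.22.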

How the data were processed

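The deposited table holds estimated counts per gene, made by the authors with STAR and Salmon on GRCm38.p6, and 8.57% of its values carry a fraction. Values were rounded to whole numbers for the tests. Spike-ins, at most 4.45% of a library, and the tag sequence were set aside. Levels are CPM with TMM factors over all libraries. Tests used edgeR 4.0.16 in R 4.3.3 (glmQLFit and glmQLFTest, TMM factors) on the protein-coding genes whose counts averaged more than 10 in a fit, with Benjamini-Hochberg adjustment over all genes tested and a threshold of 0.05. HD fits held the libraries of their 2 groups. Total RNA fits had the Cre line as a covariate. Each IP was compared with total RNA of its region (Gad2, PV and vGluT2 lines together in the cerebrum, 18 libraries; the SST line with its own 7; 14 in the cerebellum), with genotype as a covariate. Differences of HD effects were contrasts of 4 groups. Control levels were compared by an exact two-sided permutation test over the libraries of 2 groups, on the difference in mean log2(CPM + 1), with adjustment over the 45 pairs.

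Alternatives were DESeq2 1.42.0, its size factors in edgeR, library size without TMM, no filter, edgeR's own filter, all gene types, *Xist* as a covariate, the replicate or mouse as a block, total RNA of the same line, SST total RNA added, each cerebellar line alone, no re-sequenced library, SST mice of 1 code alone, a pseudocount of 0.1 CPM, and each library left out in turn. The share of counts on long genes was added as a covariate after the data were seen. IP, total RNA and regions come from the same mice, and the fits with the mouse as a block took this pairing into account. Those fits hold only mice with each kind of library compared, and leave out the libraries of other mice. For IP against total RNA, the total RNA in them is of the same line. Genes named beyond the 9 were taken from the pathway genes called in HD (of 51 genes in 5 lists) and the 3 of highest Pearson's r with each of the 9, beside cell type markers from 14 lists and genes next to the 9 on the chromosome. The members and lists were chosen with earlier results of these data known. Python 3.11.15, numpy 2.4.6, pandas 2.3.3, scipy 1.17.1 and matplotlib 3.10.9 were used.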

Additional observations from a re-analysis of the deposited data

Results flagged for a closer look

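Within groups of 4 to 10 libraries, a Dixon test marked 18 values over 135 combinations of gene and group, where about 1 in 20 is marked by chance. For *Igfbp5* these were control cerebellar Gad2+ IP replicate 4 at 136 CPM (others 96 to 110), control SST+ IP replicate 6 at 156 (125 to 134), control cerebral vGluT2+ IP replicate 3 at 223 (152 to 176), HD cerebellar Gad2+ IP replicate 1 at 56.8 (72.7 to 79.4) and the re-sequenced HD cerebral vGluT2+ IP replicate 1 at 97.5 (129 to 147). For *Igfbp2* they were HD cerebral Gad2+ IP replicate 1 at 11.6 CPM (3.97 to 6.72) and HD PV+ IP replicate 3 at 3.69 (7 to 8.04). For *Igfbp3* they were HD cerebral Gad2+ IP replicate 2 at 11.7 CPM (14.9 to 16.5) and HD vGluT2-line cerebellar total RNA replicate 1 at 20 (24.7 to 25.5).

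HD SST+ IP replicate 4 stood apart for *Igfbp4*, at 93.8 CPM (others 48.2 to 50.8), and for *Igfbp6*, at 24.9 CPM (11 to 12.8), and HD SST+ IP replicate 1 for *Igf2r*, at 27.2 CPM (22.9 to 23.6). Control cerebral vGluT2+ IP replicate 1 did so for *Igfbp6*, at 139 CPM (78.1 to 99.2), and *Igfbp7*, at 10.7 CPM (5.01 to 6.71). The further *Igfbp7* values were control cerebral Gad2+ IP replicate 1 at 2.84 CPM (0.911 to 1.46), HD cerebral Gad2+ IP replicate 1 at 3.24 (0.59 to 1.28) and the re-sequenced HD cerebral vGluT2+ IP replicate 1 at 7.31 (4.95 to 5.81). Control cerebellar vGluT2+ IP replicate 2 had 2.97 CPM of *Igf1* (0.796 to 1.07).

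Differences of HD effects that passed edgeR's quasi-likelihood test and Benjamini-Hochberg adjustment were those of *Igfbp5* in cerebellar vGluT2+ against cerebellar Gad2+ IPs (-1.18) and against cerebral vGluT2+ IPs (-1.39), and those of *Igfbp4* (-1.77) and *Igf1r* (0.93) in cerebellar vGluT2+ IPs against total RNA. With the mouse as a block that of *Igfbp4* was not called (-1.91, adjusted p = 0.0576, the same test). The share of counts on the longest genes, *Igf1r* among them, was lower in HD total RNA of the vGluT2 line and not in the IPs. The causes of these values were not tested.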

How the results depend on the processing

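The fall of *Igfbp5* in cerebellar vGluT2+ IPs was called in every alternative fit, with a log2 fold change of -1.86 to -1.72 with each of the 11 libraries left out and -1.73 with the replicate as a block (adjusted p = 0.00151, edgeR's quasi-likelihood test and Benjamini-Hochberg adjustment, as for all values here unless DESeq2 is named). In cerebellar total RNA it ran from -1.31 to -1.22 with each library left out, and was not called in the Gad2 line alone (-1.17, adjusted p = 0.721). In cerebellar Gad2+ IPs DESeq2 called 1 of the 9 genes, *Igfbp5* (22 of all 14098), where edgeR called 0 of the 9 (2 of all), also with each library left out (-0.67 to -0.55). The difference of *Igfbp5* effects ran from -1.27 to -1.09 against cerebellar Gad2+ IPs and from -1.50 to -1.33 against cerebral vGluT2+ IPs, and with the block the latter was -1.35 (adjusted p = 0.0139).

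The other results in cerebellar total RNA were less stable. The block there is the Cre line and replicate number, and no label says that control and HD mice of 1 number belong together. Deviations from the group means correlated with a median r of -0.04 within such pairs, and of 0.05 between other numbers. *Igfbp4* was not called with the block (0.86, adjusted p = 0.121), with the share of long genes as a covariate (0.44, adjusted p = 0.616), or in the Gad2 line alone (0.25, adjusted p = 1). It ran from 0.78 to 1 with each library left out, and was not called without control vGluT2-line replicate 1 (0.84, adjusted p = 0.0651), 2 (0.82, 0.0638), 3 (0.81, 0.0538) or 4 (0.87, 0.0616), HD Gad2-line replicate 2 (0.93, 0.0546), or HD vGluT2-line replicate 2 (0.83, 0.0629), 3 (0.85, 0.06) or 4 (0.92, 0.0574). *Igf2r* was not called with the block (-0.45, adjusted p = 0.121), the covariate (-0.19, adjusted p = 0.799) or in the Gad2 line alone (-0.24, adjusted p = 1). It ran from -0.51 to -0.38, and was not called without control Gad2-line replicate 2 (-0.45, adjusted p = 0.0653), control vGluT2-line replicate 1 (-0.39, 0.082), 2 (-0.41, 0.0782), 3 (-0.45, 0.0593) or 4 (-0.45, 0.0715), HD Gad2-line replicate 2 (-0.42, 0.0754), or HD vGluT2-line replicate 2 (-0.38, 0.0816), 3 (-0.38, 0.084) or 4 (-0.43, 0.0754).

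Other genes were called there in single settings. *Igf1* was called by DESeq2 (-0.77, adjusted p = 0.0364), in the vGluT2 line alone (-1.25, adjusted p = 0.00499), and without control Gad2-line replicate 1 (-0.95, adjusted p = 0.0244) or HD Gad2-line replicate 3 (-0.98, adjusted p = 0.0102), with a range of -0.98 to -0.64. *Igf1r* was called in the vGluT2 line alone (-0.64, adjusted p = 0.00161) and without control Gad2-line replicate 1 (-0.50, adjusted p = 0.048) or 3 (-0.54, adjusted p = 0.0243) or HD Gad2-line replicate 3 (-0.60, adjusted p = 0.0044), with a range of -0.60 to -0.34. In the vGluT2 line *Igfbp2* (0.95, adjusted p = 0.0398) and *Igfbp6* (0.50, adjusted p = 0.047) were called too. Signs reversed for *Igfbp2* (-0.11 with the covariate, adjusted p = 0.958, and -0.38 in the Gad2 line, adjusted p = 1), *Igfbp6* (-0.33, adjusted p = 0.716, and -0.14, adjusted p = 1), *Igfbp7* (-0.19, adjusted p = 0.903, and -0.11, adjusted p = 1), *Igf1* (0.02 with the covariate, adjusted p = 0.987) and *Igf1r* (0.09 with the covariate, adjusted p = 0.892), none of them called in the fit of all 14 libraries.

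The count of the 9 genes called in cerebellar total RNA, 3, was 4 by DESeq2, 1 with the block, 1 with the covariate, 0 in the Gad2 line and 7 in the vGluT2 line. It was 5 without control Gad2-line replicate 1 or HD Gad2-line replicate 3, 4 without control Gad2-line replicate 3, 2 without control Gad2-line replicate 2, and 1 without control vGluT2-line replicate 1, 2, 3 or 4, HD Gad2-line replicate 2, or HD vGluT2-line replicate 2, 3 or 4. The calls over all genes moved with it, from 3544 with all libraries to 9 with the block, 41 with the covariate, 96 to 143 without the libraries that left a count of 1, and 5078 and 7408 without those that gave 5. The cause was not tested.

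For vGluT2+ IPs minus total RNA, the *Igfbp4* difference was -1.91 with the block (adjusted p = 0.0576) and -1.98 to -1.06 with each library left out, and was not called without control IP replicate 5 (-1.06, adjusted p = 0.0802), control total RNA replicate 1 (-1.78, adjusted p = 0.0518) or 2 (-1.73, adjusted p = 0.0554), or HD total RNA replicate 1 (-1.66, adjusted p = 0.0561), where the count fell from 2 to 1. The *Igf1r* difference was 0.78 with the block (adjusted p = 0.0463) and 0.82 to 1.04. That of *Igfbp5* was called by DESeq2 (-0.46, adjusted p = 0.0407), with the block (-0.61, adjusted p = 0.0335), and without control IP replicate 3 (-0.56, adjusted p = 0.0186) or HD IP replicate 4 (-0.48, adjusted p = 0.0434). The count was 3 by DESeq2 and 2 with the block, where *Igfbp5* was gained and *Igfbp4* lost.

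Against total RNA, the mouse as a block ended the calls of *Igf1r* in cerebral Gad2+ (-0.33, adjusted p = 0.137), *Igfbp5* in SST+ (-0.20, adjusted p = 0.0872) and *Igfbp3* in cerebellar Gad2+ IPs (0.15, adjusted p = 0.285; 0.29 with total RNA of the same line, adjusted p = 0.058). Without TMM, SST+ IPs gave 0.34 for *Igfbp3* (adjusted p = 0.00707) and -0.10 for *Igfbp5* (adjusted p = 0.429). Without the filter *Igfbp3* was called in cerebellar vGluT2+ IPs (0.25, adjusted p = 0.0382). Between regions of total RNA the block gave calls for *Igfbp2* (-1.06, adjusted p = 0.000706) and *Igf1* (1.07, adjusted p = 0.00355). These block fits, against total RNA and between regions of it, hold only mice with both kinds of library. Pairing and the choice of libraries cannot be told apart in them. The region difference of *Igfbp4* in vGluT2+ IPs ran from -6.13 (without cerebellar replicate 5) to -5.20. The libraries are of 1 age, Cre lines differ in their mice, and 3 mice a group limit total RNA of the Gad2 line.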
